A study of Mus musculus with 12 samples.

Results

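The 4 libraries described here hold the transcriptome of the gonadal (peri-uterine) fat of wild type mice in late pregnancy. They are all libraries labelled wild type, 4 of the 12 libraries in the series, chosen by that label and by no measured value. The wild type label (WT vehicle) reads Tnfrsf11a (Rank) without Foxn1 Cre, and the treatment is vehicle. The other 8 libraries carry Foxn1 Cre and are labelled knockout, 4 with vehicle (KO vehicle) and 4 with the treatment labelled Treg (KO Treg). All 12 are from pregnant E17.5 mice, and no strain or age of the mothers is given in those labels. Foxn1 is a transcription factor of thymic and skin epithelium, so the Cre of the knockout libraries is driven in cells outside fat. Each library has a number of its own in the labels. The labels do not state that each number is a separate animal, so spreads and p-values measure the difference between these samples.

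White adipose tissue stores fatty acids as triglyceride in a single large droplet per adipocyte and releases them again by lipolysis. Adipocytes make fatty acids from glucose, take them up from lipoproteins through lipoprotein lipase, and secrete proteins such as adiponectin, adipsin and leptin. The gonadal depot lies along the uterine horns and also holds progenitors, endothelium, macrophages, smooth muscle of vessels and a mesothelial cover. In mice, white fat can also contain thermogenic adipocytes, whose mitochondria burn fuel for heat through uncoupling protein 1.

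RNA ends were sequenced with a 3' method that yields reads near the end of a transcript, so a value in CPM (counts per 1000000 of the library total) was not divided by transcript length. The WT vehicle libraries held 12972655, 9635532, 5551967 and 7664806 counts in replicates 1 to 4, against 8350348 to 9617503 in KO vehicle and 6583263 to 8746946 in KO Treg. A count of 3 corresponded to 0.231 to 0.540 CPM in WT vehicle, and such limits cover counting error only. Of the 20632 genes in the table, 15610 had a count in at least 1 WT vehicle library and 13279 in all 4. A mean of at least 1 CPM was reached by 12072 genes, at least 10 CPM by 8084 and at least 1000 CPM by 119. Pearson's r of log2(CPM + 1) between pairs of WT vehicle libraries ran from 0.948 to 0.972 across genes, which are not independent replicates. The 3 pairs that include WT vehicle 1 were the lowest (0.948 to 0.959), and results that rest on that library are given with its own value.

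The label was checked against 3 adipocyte genes. Cfd, which encodes adipsin (complement factor D), was at 47439, 41306, 56413 and 39618 CPM in the 4 WT vehicle libraries. Fabp4, the fatty acid carrier of adipocytes, was at 33047, 25554, 19073 and 30037 CPM. Adipoq, which encodes adiponectin, was at 4078, 4460, 4960 and 4512 CPM. All 3 were among the 30 most abundant genes of the table. Tnfrsf11a, the gene named in the genotype, was at 4.47, 8.51, 10.6 and 9.002 CPM in WT vehicle, with a KO vehicle mean of 7.81 CPM and a KO Treg mean of 7.72 CPM. Foxn1 had no count in any of the 12 libraries. These levels do not test the genotype labels, since Foxn1 Cre is driven outside fat.

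Stretches of promoter are shown for genes at the head of the ranking (Cfd, Adipoq) and for genes of the groups that were most alike or most unlike between the 4 libraries: Fasn for fatty acid synthesis, Ucp1 for thermogenic adipocytes, Cnn1 for smooth muscle and Mat2a for the steadiest genes. Each line gives the 100 bases before the annotated start, 5′ to 3′ on the strand of the gene, from RefSeq on GRCm38.p6. Capitals mark matches to 3 promoter motifs on either strand, and adjoining matches can overlap. The first motif is TATAAA, bound by the general transcription machinery. The second is CCAAT, and the third is GGGCGG, a site of Sp factors. A further motif, the CArG box (CC, a run of A or T, then GG), was also sought, and none of these stretches held it.
Cfd: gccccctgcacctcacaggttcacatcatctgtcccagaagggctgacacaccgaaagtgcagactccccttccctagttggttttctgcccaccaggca
Adipoq: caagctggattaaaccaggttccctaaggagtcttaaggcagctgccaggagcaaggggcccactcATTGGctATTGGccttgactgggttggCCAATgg
Fasn: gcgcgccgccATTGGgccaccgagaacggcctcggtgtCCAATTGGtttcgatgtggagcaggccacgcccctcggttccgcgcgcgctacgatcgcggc
Ucp1: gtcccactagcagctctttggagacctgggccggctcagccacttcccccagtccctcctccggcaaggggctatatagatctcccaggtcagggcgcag
Cnn1: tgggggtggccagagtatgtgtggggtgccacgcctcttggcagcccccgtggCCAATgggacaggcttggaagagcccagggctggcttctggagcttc
Mat2a: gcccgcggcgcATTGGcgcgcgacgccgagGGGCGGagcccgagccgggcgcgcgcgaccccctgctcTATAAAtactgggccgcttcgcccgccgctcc

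These stretches lie at chr10:79890753-79890852 (plus strand) for Cfd, chr16:23146436-23146535 (plus strand) for Adipoq and chr11:120824548-120824647 (minus strand) for Fasn. Those of the other 3 lie at chr8:83290248-83290347 (plus strand) for Ucp1, chr9:22099153-22099252 (plus strand) for Cnn1 and chr6:72439557-72439656 (minus strand) for Mat2a. Mat2a held all 3 motifs, with TATAAA 32 bases before the start. Fasn held CCAAT 3 times, at 90, 62 and 59 bases before the start, the last 2 on opposite strands within 1 run of letters. Adipoq also held it 3 times and Cnn1 once, and neither Cfd nor Ucp1 held any of the 3 motifs in these bases. Over the 300 bases from 250 before to 50 after the start, on either strand, 14.4% of 15499 promoters of the table's genes held TATAAA, 42.4% held CCAAT and 51.9% held GGGCGG. The CArG box was held by 1.66% of them. A match describes letters and is not a measured site.

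A small number of transcripts made up much of the fat transcriptome. Cfd came first in all 4 WT vehicle libraries with a mean of 46194 ± 7596 CPM (SD, n = 4), and it alone held 4.62% of counts. Fabp4 came second with 26928 ± 6075 CPM. The 10 most abundant genes held 12.6% of counts, the top 100 held 30.2% and the top 1000 held 64.5%. The 429 most abundant genes held 50% of counts and the first 4234 held 90%. The 4 libraries ranked the same genes high, with 73 genes in the top 100 of all 4 and 132 in the top 100 of any.

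After Cfd and Fabp4, the ranking by CPM mixed lipid enzymes, secreted proteins and protein synthesis. Gsn, which encodes the actin-severing protein gelsolin, was at 8745, 7497, 8760 and 7216 CPM. Lpl, lipoprotein lipase, was at 8733, 7080, 9094 and 6316 CPM. Dbi, an acyl-CoA binding protein, was at 6334, 6405, 6308 and 5655 CPM. The highest library was at most 1.44 times the lowest for these 3. Car3, a carbonic anhydrase abundant in fat and muscle, was at 5599, 4888, 7533 and 5632 CPM, and Trf, which encodes transferrin, at 2925, 4718, 5147 and 6039 CPM. Rplp1, a ribosomal stalk protein, closed the 10 most abundant genes with 3953, 4059, 5146 and 5282 CPM. Fasn and Scd1, enzymes of fatty acid synthesis and desaturation, were also among the 10 and spread far more, as described below.

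**Figure D1:**
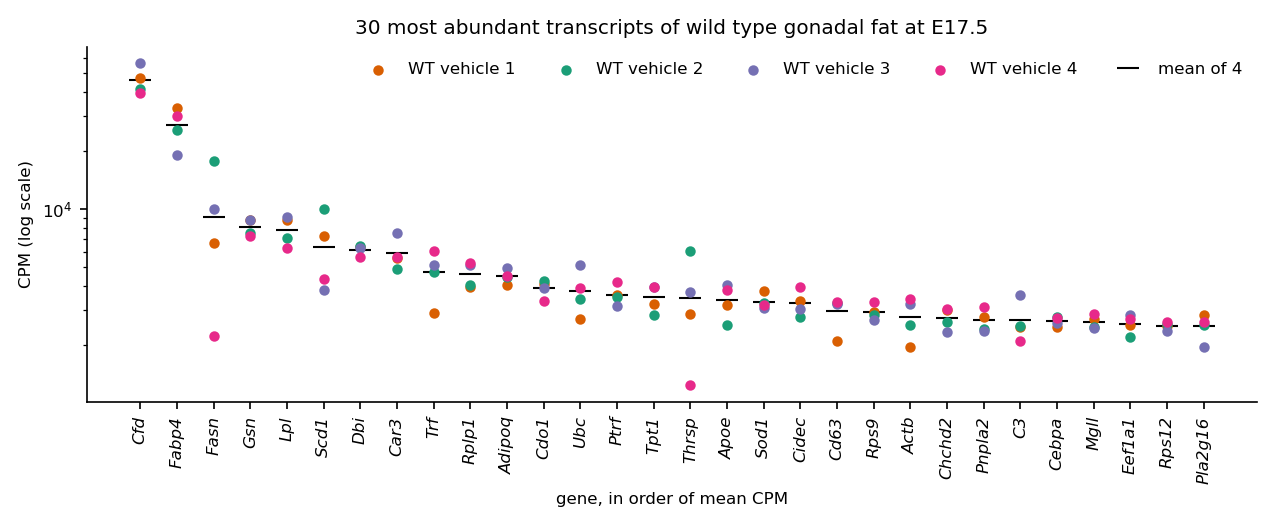
CPM (log scale) of the 30 genes of highest mean CPM in WT vehicle, with 1 coloured point per library and a black dash for the mean of 4. The points of Dbi (5655 to 6405 CPM) lie close together and those of Fabp4 (19073 to 33047 CPM) less so. Those of Fasn (2205 to 17564 CPM) and Thrsp (1231 to 6053 CPM) spread widely.

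Counts were also divided by the merged length of all annotated exons of a gene, over all its transcripts. That length can exceed that of the main transcript. For Fabp4 it was 4489 bases, the whole span of the gene, so ranks and shares per kb are rough. This scaling kept Cfd first and placed Rplp1 at rank 2, Fabp4 at rank 4 and Dbi at rank 5. Fasn was at rank 56 and Lpl at rank 71. Of the top 100 genes by CPM, 64 were also in the top 100 per kb, and the top 10 genes held 22.9% of length-scaled counts. Reads of a 3' method do not scale with length, so the CPM order is the one used here. Ribosomal protein genes have near-identical copies elsewhere in the genome, and their values are uncertain where the counting split such reads.

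The top of the list was largely shared with the knockout libraries of the series. Of the top 100 genes of WT vehicle, 84 were also in the top 100 of KO vehicle and 94 in that of KO Treg. Mean CPM ranked genes alike in WT vehicle and KO vehicle (Spearman's rho 0.977 across genes, which are not independent replicates) and in WT vehicle and KO Treg (0.989). In KO vehicle Fabp4 stood above Cfd in 3 of 4 libraries, with Cfd at 19782 to 31339 CPM there. The lowest WT vehicle library had 39618 CPM of Cfd, so WT vehicle and KO vehicle did not overlap, whereas the KO Treg libraries (33837 to 46108 CPM) overlapped WT vehicle. Cfd in WT vehicle, relative to the mean of both knockout groups, was higher by 0.52 ± 0.15 on the log2 scale (SE) with an edgeR adjusted p of 0.401 over all genes tested, which did not pass the threshold of 0.05.

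The classes of genes that make up this transcriptome were read from lists of named genes, each as a percent of library counts, and a gene can stand in more than 1 list. Cytosolic ribosomal proteins, the building blocks of the ribosome, took 7.07%, 7.04%, 8.38% and 8.70% of counts in the 4 WT vehicle libraries. Adipocyte identity and lipid storage genes took 7.29%, 5.91%, 5.28% and 6.60%, with 43.0% of that share from Fabp4 alone. Adipokines and other secreted adipocyte proteins took 5.81%, 5.17%, 6.91% and 5.13%, and Cfd gave 80.2% of that share. Adipocyte genes and ribosomal proteins together thus head the classes, each by a mean of at least 5.76% of counts. Scaled per kb, their shares were 14.9% for ribosomal proteins, 4.22% for adipocyte identity and 14.6% for adipokines.

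Among adipocyte genes, several of the fat droplet were abundant. The highest library was at most 1.54 times the lowest for Cidec, Plin4 and Plin1. Cidec, which joins droplets into a large one, had 3336, 2775, 3050 and 3949 CPM. Plin4, a coat protein of droplets, had 2106, 1368, 1477 and 2040 CPM, and Plin1, the perilipin that gates lipolysis, had 693, 543, 673 and 696 CPM. The lipases that empty the droplet in sequence were at 2669 ± 355 CPM for Pnpla2 (SD, n = 4), 1105 ± 174 for Lipe and 2627 ± 213 for Mgll. Cebpa, a transcription factor of adipocyte differentiation, was at 2458, 2759, 2584 and 2753 CPM. Pparg, its partner in that program, was much lower by CPM at 21.6, 39.8, 23.1 and 34.7. Of 29 genes of this class with a mean of at least 10 CPM, Cidea was the single one whose highest library was at least 4 times its lowest.

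The secreted proteins other than Cfd and Adipoq had more uneven values. Retn, which encodes resistin, had 1516, 1591, 1618 and 812 CPM, so WT vehicle 4 stood apart at the low end. Lep, which encodes the satiety hormone leptin, had 27.3, 117, 33.3 and 44.2 CPM and was highest in WT vehicle 2. Its values in KO vehicle (143 to 328 CPM) all lay above those of WT vehicle, and those in KO Treg (110 to 210 CPM) overlapped them. Sfrp5, a secreted Wnt inhibitor of adipocytes, had 10.9, 11.4, 4.14 and 47.1 CPM, against 176 to 404 in KO vehicle and 13.0 to 61.4 in KO Treg. The share of all genes whose WT vehicle and KO vehicle libraries do not overlap is not given here. No difference is thus read from the values of Lep, Sfrp5 or Cfd. Apoe, the lipid carrier, was at 3399 ± 690 CPM (SD, n = 4), and C3, the complement protein that Cfd helps to activate, at 2472, 2492, 3611 and 2096 CPM.

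Mitochondrial classes followed. The nuclear genes of oxidative phosphorylation took 4.47%, 3.58%, 3.34% and 3.06% of counts, with a mean of 3.62% over all 4 and 3.33% without WT vehicle 1. Its most abundant members included Atp5g3 (1748 ± 256 CPM, SD, n = 4) and Atp5b (1510 ± 281 CPM), both parts of ATP synthase, Uqcrh of complex III (1457 ± 213 CPM) and Cox6c of complex IV (1382 ± 277 CPM). Of the 82 members with at least 10 CPM, 74 were highest in WT vehicle 1 and 59 were lowest in WT vehicle 4, against 21.7% and 19.1% of all 8084 genes at that level. Fatty acid oxidation and the tricarboxylic acid cycle took 1.41 ± 0.223% (SD, n = 4), and 23 of its 32 members were highest in WT vehicle 1. No gene of the table matched the list of mitochondrially encoded genes, which were therefore not analysed here.

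Stress proteins and the matrix made smaller shares. Heat shock and unfolded protein response genes took 1.01 ± 0.161% of counts (SD, n = 4), with Hsp90ab1, a cytosolic chaperone, at 2284 ± 426 CPM and Hspa5, a chaperone of the endoplasmic reticulum, at 1091 ± 225 CPM. Of their 25 members at 10 CPM or more, 20 were highest in WT vehicle 4, as were 34.6% of all 8084 genes at that level. Collagens took 0.227 ± 0.0334% and other matrix genes 1.07 ± 0.197%. The matrix class was led by Dcn, a proteoglycan, with 1495, 2088, 3186 and 1590 CPM, and Sparc, a matrix protein that binds collagen, with 1307, 2356, 2137 and 1898 CPM. Col1a2 was the most abundant collagen gene by CPM, at 386, 554, 615 and 278.

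Other cell types were present at shares below 1%. In bulk tissue, fewer cells of a type and less RNA per cell cannot be told apart. Macrophage genes took 0.424 ± 0.0592% of counts (SD, n = 4), of which 55.2% came from Ctsd, a lysosomal protease that many cells express. The macrophage genes C1qa (384 ± 34.4 CPM), Cd163 (138 ± 13.6 CPM) and Csf1r (99.4 ± 15.7 CPM) differed little between the 4 libraries. Endothelial genes took 0.338 ± 0.0244%, with Pecam1, an adhesion protein of endothelium, at 503, 519, 544 and 631 CPM. Progenitor genes took 0.887%, but 90.8% of that was Gsn, and the progenitor receptor Pdgfra had 24.7, 32.0, 34.0 and 25.8 CPM.

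Lymphocytes were near the limit of detection. The T and NK cell list took 0.00287 ± 0.000900% of counts, and the T cell receptor genes Cd3d, Cd3e and Cd3g had means of 1.68, 0.363 and 0.117 CPM. The B cell markers Cd79a and Ms4a1 averaged 0.162 and 0.489 CPM. Igj, the joining chain of secreted antibodies, had 10.2, 0.830, 1.08 and 49.3 CPM, and all its counts were multiples of 2 in the files. Neutrophil genes S100a8 (34.1, 25.8, 6.30 and 40.7 CPM) and S100a9 (19.04, 14.6, 1.98 and 24.4 CPM) were lowest in WT vehicle 3.

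Tissues next to the depot gave low values as well. Of 19 uterus and ovary genes, 7 had no count in WT vehicle, and the list took 0.000794% to 0.00483% of counts, highest in WT vehicle 3. Of 34 placenta genes, 16 had no count and the list took 0.00161% to 0.00389%, of which Psg23 gave 74.6%. The placental list reached 0.0182% in KO vehicle and 0.0392% in KO Treg. The milk genes Csn3 and Wap had no count, and Csn2 averaged 0.0971 CPM. The haemoglobin genes Hba-a1 and Hbb-b1 are listed at 0 in all 12 libraries while Alas2, which makes haem in red cell precursors, was at 40.1, 49.0, 96.5 and 141 CPM.

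**Figure D2:**
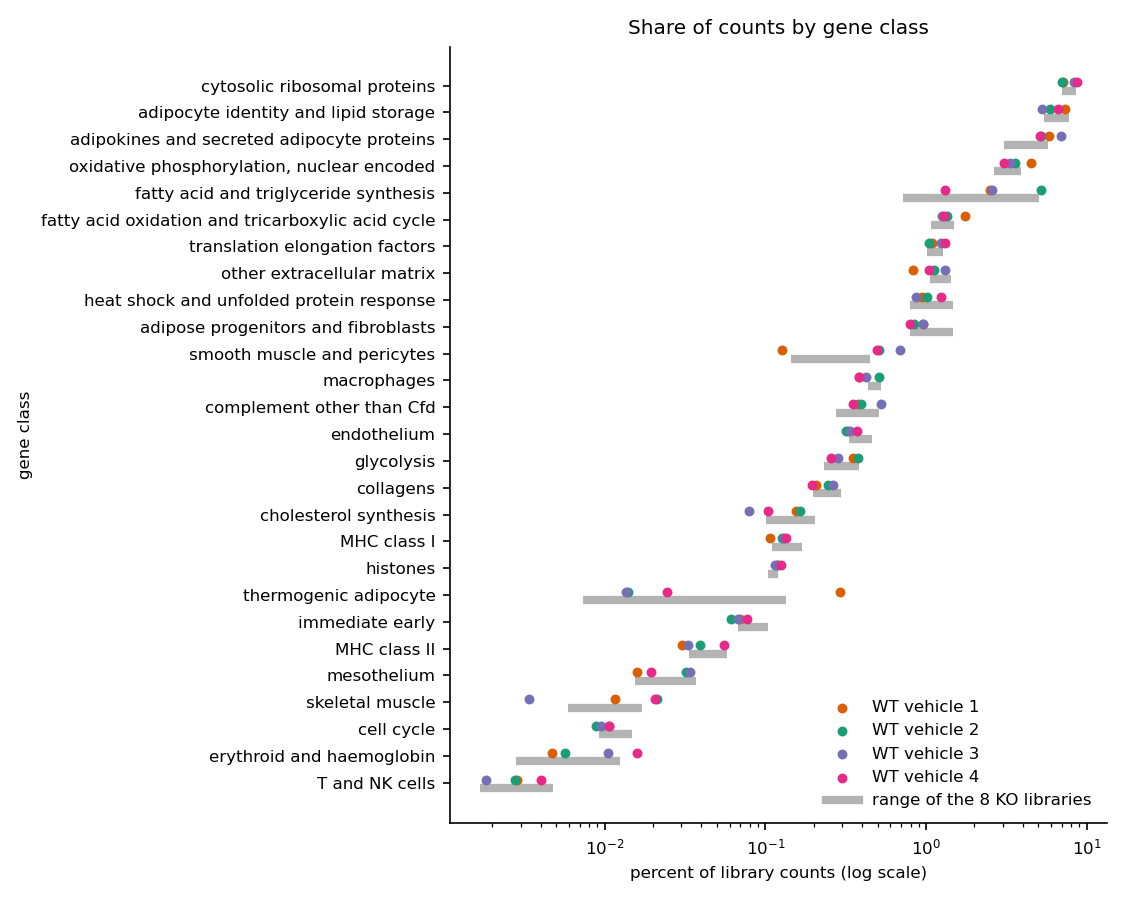
Percent of library counts (log scale) taken by 27 gene classes, with 1 coloured point per WT vehicle library and a grey bar from the lowest to the highest of the 8 knockout libraries. Ribosomal, adipocyte and adipokine classes lie highest, and the points of the thermogenic class (0.0135% to 0.293%) and of smooth muscle (0.126% to 0.691%) lie far apart.

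Receptors of pregnancy and metabolic hormones were read as a class of their own. Adipor2, an adiponectin receptor, was its most abundant member at 1302 ± 197 CPM (SD, n = 4), followed by Ghr, the growth hormone receptor, at 512 ± 164 CPM. Oxtr, the receptor of the hormone oxytocin, had 137, 532, 291 and 119 CPM and was the single member of 12 at 10 CPM or more that spread by at least 4 times. Prlr, the receptor of prolactin and placental lactogens, was at 46.7, 81.4, 72.8 and 84.8 CPM. Esr1, an oestrogen receptor, was at 70.1, 102, 114 and 90.7 CPM, and Pgr, the progesterone receptor, at 0.848, 9.34, 11.9 and 2.61 CPM. Nr3c1, the glucocorticoid receptor, was steady at 216, 197, 234 and 223 CPM.

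The spread between the 4 libraries was larger than counting error for most genes. Over the 8084 genes with at least 10 CPM, the median coefficient of variation was 14.8%, where counting alone would give 5.54%, and the median ratio of highest to lowest library was 1.39. In 543 genes (6.72%) the variance was at or below that of counting. The common biological coefficient of variation by edgeR was 21.2%.

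Genes were called variable where the mean was at least 10 CPM and the highest library at least 4 times the lowest, and steady where the mean was at least 50 CPM and the highest library at most 25% above the lowest. By these rules 121 of 8084 genes (1.50%) were variable and 1075 of 3395 genes (31.7%) were steady. Of the 8084 genes, 260 reached 10 CPM through their highest library alone, which favours a wide spread. Among the 7824 genes that kept that mean without their highest library, 91 (1.16%) were variable. Just inside the limit of 4 were Zbtb16 and Bhlhe41, each with a ratio of 4.06, and just outside it Hlf (3.999) and Pamr1 (3.98). At the limit for steady genes, Inppl1 (a ratio of 1.24997) and Plin3 (1.24995) lay just inside and Saraf (1.25016) and Atad1 (1.25049) just outside. The variable genes were spread over the libraries, with 32, 35, 34 and 20 of the 121 highest in WT vehicle 1 to 4. The lowest value fell in WT vehicle 1 for 39 genes and in WT vehicle 4 for another 39.

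**Figure D3:**
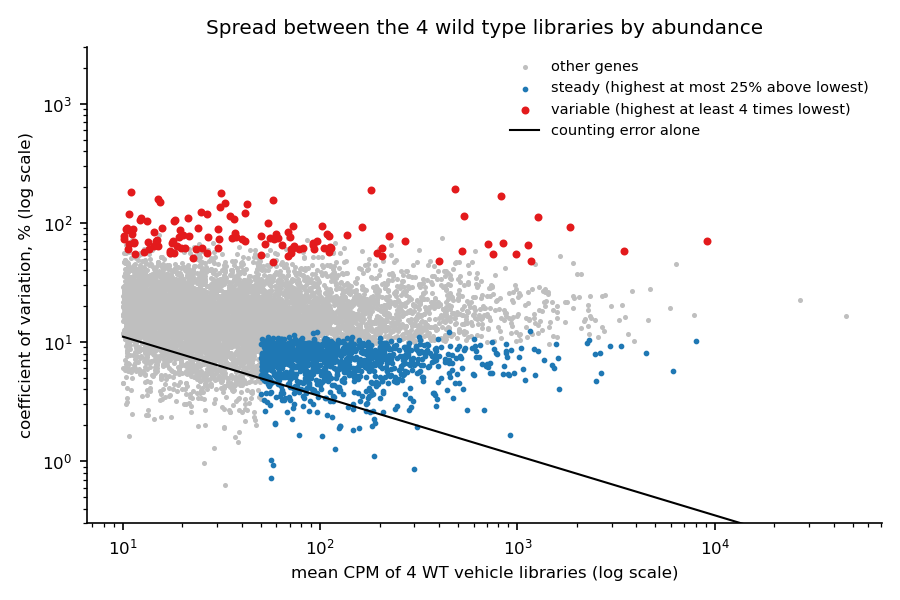
Coefficient of variation in percent against mean CPM of the 4 WT vehicle libraries, both on log scales, for 8084 genes with at least 10 CPM. Red points are the 121 variable genes, blue points the 1075 steady genes, and the black line is counting error alone; most points lie above that line.

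Of the 121 variable genes, 56 stood in a list of named genes, and 31 of these stood in the thermogenic, fatty acid synthesis or smooth muscle list. The calls per list were 14 of 18 members at 10 CPM or more for smooth muscle and 10 of 24 for fatty acid synthesis, beside 1.50% of all genes. Of the 14 thermogenic genes in the table, 9 had a mean of at least 10 CPM and 8 were variable, but 4 of the 9 reached that mean through their highest library alone, which favours a wide spread among those that passed, and no share is read from this list. The members of the other 2 lists at 10 CPM or more all kept that mean without their highest library. Of all 7824 genes that did so, 1.16% were variable. No member was variable among 82 ribosomal, 82 oxidative phosphorylation, 32 fatty acid oxidation, 25 stress, 22 macrophage, 18 endothelial or 16 collagen genes. At the share of 1.50% for all genes, lists of these sizes would hold few or none, so this sets none of them apart. Each of the 3 lists was led by a different library, WT vehicle 1 for thermogenic genes, WT vehicle 2 for fatty acid synthesis and WT vehicle 3 for smooth muscle.

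Thermogenic genes were high in WT vehicle 1. Beside the list stand Cidea and Fabp3, which are not in it. Ucp1, the uncoupling protein of brown and beige fat (chr8:83290352-83298452 on GRCm38), was at 1886, 0.934, 0.540 and 48.8 CPM. The value in WT vehicle 3 rests on 3 counts, which gives a ratio of 3491 with a counting interval of 1194 to 16927 at 95%. Cidea, a droplet protein of thermogenic fat, was at 2890, 156, 30.98 and 207 CPM. Fabp3, the fatty acid carrier of muscle and brown fat, was at 697, 1.04, 3.602 and 22.05 CPM. WT vehicle 1 was thus the highest and WT vehicle 4 second for all 3, and the lowest value fell in WT vehicle 2 or 3.

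Most other members of the thermogenic list were also highest in WT vehicle 1. Cox8b and Cox7a1, respiratory chain subunits of muscle and brown fat, were at 386, 62.0, 91.1 and 111 CPM and at 191, 12.8, 9.55 and 16.3 CPM. Dio2, which activates thyroid hormone, was at 51.3, 3.63, 1.62 and 3.91 CPM. Cpt1b, which admits fatty acids to mitochondria in muscle and brown fat, was at 115, 2.49, 2.16 and 6.001 CPM. Of all 14 members in the table, 12 were highest in WT vehicle 1, as were 20.5% of the 15610 genes with a count. Prdm16, a regulator of brown fat identity, was one of the 12, spread by 2.05 times (35.2, 20.6, 17.1 and 27.7 CPM) and was not called variable. Zic1, a marker of classical brown fat, had at most 0.360 CPM in any WT vehicle library. The list took 0.293% of counts in WT vehicle 1, and between 0.0135% and 0.0244% in WT vehicle 2 to 4.

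Ucp1 also separated libraries within the knockout groups. It was at 0.479, 829, 204 and 0.208 CPM in KO vehicle and at 0.723, 43.2, 1.37 and 0.117 CPM in KO Treg. WT vehicle 1 was thus the highest of the 12 libraries, followed by KO vehicle 2 and KO vehicle 3. In these 3 libraries the share of nuclear oxidative phosphorylation genes was 4.47%, 3.33% and 3.91%, while the other 9 ranged from 2.66% to 3.61%, and the part of one in the other was not tested.

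Fatty acid synthesis genes were high in WT vehicle 2 and low in WT vehicle 4. Fasn, fatty acid synthase (chr11:120805846-120824547 on GRCm38), was at 6704, 17564, 10033 and 2205 CPM and was the third most abundant gene by mean. Acly, which makes cytosolic acetyl-CoA from citrate, was at 507, 3332, 938 and 280 CPM. Elovl6, which lengthens palmitate, was at 206, 1433, 433 and 68.5 CPM. The order of these libraries was the same for all 3, WT vehicle 2, then 3, then 1, then 4.

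Other genes tied to lipid synthesis were likewise highest in WT vehicle 2. Me1, malic enzyme, which makes NADPH, was at 1361, 4361, 1100 and 546 CPM. Thrsp, a lipogenic protein of unsettled function, was at 2866, 6053, 3753 and 1231 CPM. Slc2a5, a fructose transporter that is not in the list, was at 13.0, 116, 31.3 and 6.001 CPM. Scd1, the desaturase that makes oleate, had a ratio of 2.62 (7256, 10027, 3821 and 4359 CPM) and was not called variable, and Acaca, acetyl-CoA carboxylase, had a ratio of 2.66. Of the 24 members at 10 CPM or more, 20 were highest in WT vehicle 2 and 13 lowest in WT vehicle 4, beside 17.45% and 19.1% of all 8084 genes.

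The transcription factors Srebf1 and Mlxipl spread less than Fasn, Acly and Elovl6. Srebf1, the sterol regulatory element binding protein, was at 28.3, 54.2, 26.8 and 39.9 CPM. Mlxipl, which encodes ChREBP, was at 224, 431, 231 and 199 CPM. Both were highest in WT vehicle 2, with ratios of 2.02 and 2.17, beside a median ratio of 2.64 for the fatty acid synthesis list. That list also held 2 steady genes, so some of its members spread less than both factors. Cholesterol synthesis genes were also highest in WT vehicle 2 for 15 of all 20 members, as were 18.4% of the 15610 genes with a count. Fatty acid synthesis as a whole took 2.51%, 5.16%, 2.58% and 1.31% of counts, against 0.719% to 3.398% among KO vehicle and 1.06% to 5.01% among KO Treg libraries.

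Smooth muscle genes were low in WT vehicle 1 and highest in WT vehicle 3. Actg2, the actin of visceral smooth muscle (chr6:83512905-83536265 on GRCm38), was at 0.694, 95.2, 232 and 78.02 CPM. Its value in WT vehicle 1 rests on 9 counts, and the ratio was 335 with a counting interval of 176 to 734. Cnn1, which encodes calponin, was at 6.32, 115, 265 and 160 CPM. Tagln, another actin-binding protein of smooth muscle, was at 13.9, 140, 164 and 68.9 CPM, and Des, which encodes the filament desmin, at 16.4, 96.7, 170 and 85.7 CPM. Acta2, the actin of vascular smooth muscle, was at 112, 563, 841 and 567 CPM.

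Myh11, the smooth muscle myosin, was at 49.0, 261, 288 and 225 CPM. Mylk, the kinase that activates that myosin, was at 351, 1387, 1589 and 1348 CPM. Of the 18 members at 10 CPM or more, 16 were lowest in WT vehicle 1 and 15 highest in WT vehicle 3, beside 29.0% and 26.2% of all 8084 genes. The pericyte genes Rgs5 (14.9, 12.9, 15.3 and 18.3 CPM) and Cspg4 (12.03, 18.7, 8.11 and 9.92 CPM) did not follow that order. The share of the list was 0.126%, 0.509%, 0.691% and 0.496% in WT vehicle, against 0.177% to 0.333% in KO vehicle and 0.145% to 0.448% in KO Treg.

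Markers of neighbouring tissue were read beside the smooth muscle values. The mesothelial list, 11 genes of which 7 had at least 10 CPM, took 0.0159%, 0.0321%, 0.0342% and 0.0194%. Of the 11 genes, 7 were highest in WT vehicle 3, as were 28.1% of the 15610 genes with a count. The mesothelial markers Msln, Upk3b and Krt19 averaged 32.6, 27.3 and 14.8 CPM. The uterus and ovary list took 0.000794%, 0.00226%, 0.00483% and 0.00112%, led by Star, a cholesterol carrier of steroid-making cells, at 4.70, 8.41, 32.2 and 3.78 CPM. Cyp11a1, the enzyme that starts steroid synthesis, had no count in WT vehicle 1 and at most 0.830 CPM elsewhere. The part of these tissues in the smooth muscle values was not tested.

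**Figure D4:**
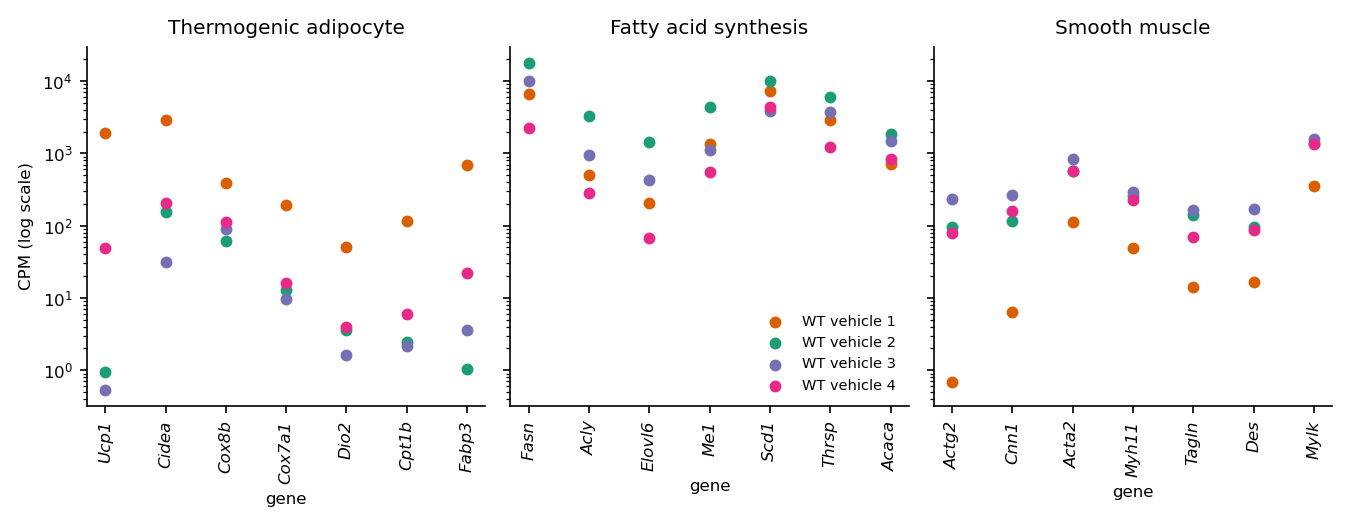
CPM (log scale) of 7 genes each of the thermogenic, fatty acid synthesis and smooth muscle groups, with 1 coloured point per WT vehicle library. WT vehicle 1 lies highest in the thermogenic panel and lowest in the smooth muscle panel, and WT vehicle 2 lies highest in the fatty acid synthesis panel.

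Variable genes outside these groups included hormones and serum proteins. Mest, an imprinted gene linked to adipocyte growth in mice, was at 6.32, 40.8, 8.11 and 90.9 CPM, against 165 to 816 in KO vehicle and 18.6 to 96.1 in KO Treg. Serpina3k, a serine protease inhibitor, was at 6.94, 116, 91.5 and 80.1 CPM, but its exons overlap those of Serpina3m, so reads of the pair may be shared. Penk, which encodes enkephalin, was at 3.62, 16.5, 56.0 and 9.66 CPM. Pck1, the enzyme of glyceroneogenesis in fat, was at 1118, 240, 518 and 1497 CPM, the reverse of the order of Fasn. Ifi27l2a, an interferon-induced gene, was at 1332, 188, 670 and 650 CPM.

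The library numbers in the labels fall in a lower series (WT vehicle 1 and 2) and a higher series (WT vehicle 3 and 4), which the labels do not call a batch. Every KO vehicle library falls in the lower series, as do KO Treg 1 and 2, while KO Treg 3 and 4 fall in the higher. Comparisons of WT vehicle with KO vehicle are thus unbalanced over the series. Within WT vehicle, the lower and higher pairs did not overlap in 28 of the 121 variable genes (23.1%), against 39.1% of the 8084 genes at 10 CPM or more. The part of the series in these differences was not tested. With WT vehicle 1 left out 63 genes were variable, with WT vehicle 4 left out 80.

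The genes of smallest ratio had differing roles. Mat2a, which makes the methyl donor S-adenosylmethionine, was at 296, 300.4, 303 and 301 CPM. Flt1, a receptor of vascular endothelial growth factor, was at 188, 186, 186 and 190.1 CPM. Pacs2, a sorting protein, was at 56.0, 56.2, 55.7 and 56.6 CPM and had the smallest ratio among the 3395 genes at 50 CPM or more, 1.02. Among abundant genes Mgst1, a detoxifying enzyme, was at 899, 910, 923 and 933 CPM. The coefficients of variation of Mat2a (0.855%), Flt1 (1.09%) and Pacs2 (0.719%) lay below those of counting error alone (2.02%, 2.56% and 4.68% in that order), so the order of the smallest ratios was within counting error, whereas that of Mgst1 (1.64%) lay above it (1.16%).

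Of all 3395 genes at 50 CPM or more, 31.7% were steady. Lower shares were found in several classes, among them oxidative phosphorylation genes (4 of 76, 5.26%) and adipocyte identity genes (3 of 26, 11.5%). The others included stress genes (0 of 20), smooth muscle (0 of 16), fatty acid synthesis (2 of 21, 9.52%) and fatty acid oxidation genes (3 of 28, 10.7%). Ribosomal proteins were near the share of all genes (22 of 81, 27.2%). Translation factors and endothelial genes each had 5 of 11 steady (45.5%), and lists this short do not set these classes apart. Of the 82 ribosomal proteins at 10 CPM or more, none was variable, beside 1.50% of all 8084 genes. Of these 82, 34 were highest in WT vehicle 3 and 44 in WT vehicle 4, beside 26.2% and 34.6% of all 8084 genes. Rps12 (2504, 2544, 2340 and 2619 CPM) and Rpl23 (1538, 1593, 1684 and 1652 CPM), both structural parts of the ribosome, were among the steady ones. The summed share of histone genes, 0.119 ± 0.00375% (SD, n = 4), differed by 1.08 times between the lowest and highest library, and the predicted and RIKEN genes (1.05 times) were the single class of 45 with rows that differed less.

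The same limits on the ratio were then applied to the 8 libraries that had no part in choosing these genes. No minimum CPM was set in the knockout libraries, so ratios of genes that are low there carry more counting error. With the minimum set within each group, 65 genes were variable in KO vehicle and 93 in KO Treg. Of the 121 variable genes, 51 (42.1%) also spread by at least 4 times among the 4 KO vehicle libraries, where 0.940% of all 8084 genes did, and 47 (38.8%) among the 4 KO Treg libraries, where 1.19% did. Their median ratio was 3.35 in KO vehicle and 3.32 in KO Treg, against 1.43 and 1.38 for all genes. Of the 1075 steady genes, 398 (37.0%) were within 25% in KO vehicle and 484 (45.0%) in KO Treg, where 25.3% and 34.9% of the 3395 genes were. The share of variable genes found again rested partly on single libraries: it was 14.9% in KO Treg without KO Treg 3 and 28.1% in KO vehicle without KO vehicle 3, and leaving out a library lowers every ratio by construction.

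A set of 17 genes met the rule for variable genes in all 3 groups. They were the thermogenic genes Ucp1 and Cidea, Actg2 and Cnn1 of smooth muscle, and Fasn, Acly, Elovl6, Me1, Acss2, Scd2 and Thrsp of fatty acid synthesis. The other 6 were Slc2a5, Tkt, Mest, Serpina3b, Mgst3 and Parm1. Fasn, for example, spanned 2205 to 17564 CPM within WT vehicle, beside 586 to 11813 CPM among KO vehicle and 2288 to 19538 CPM among KO Treg libraries. In the other direction, 223 genes were steady in all 3 groups.

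**Figure D5:**
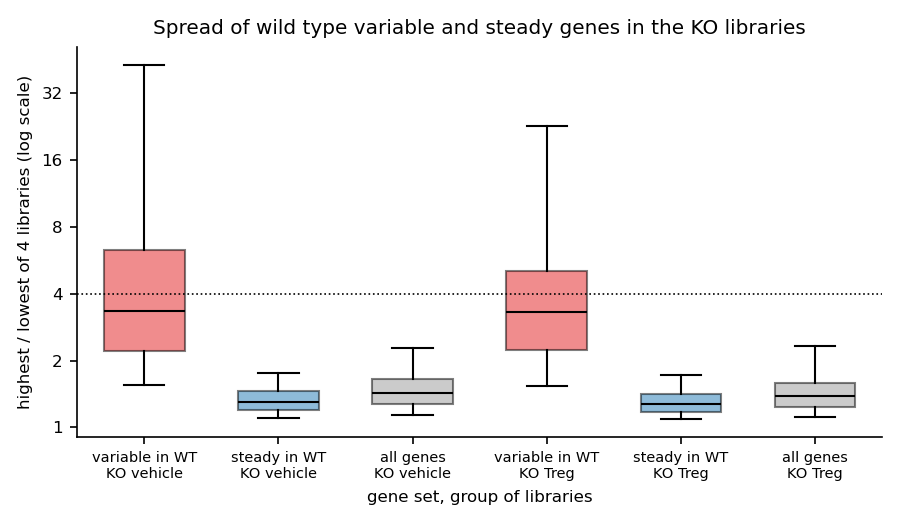
Ratio of the highest to the lowest of 4 libraries (log scale) in KO vehicle and in KO Treg for the genes called variable in WT vehicle, the genes called steady there and all 8084 genes at 10 CPM or more. Boxes span the quartiles with the median as a line, whiskers run from the 5th to the 95th percentile, and the dotted line marks 4; the medians of the variable genes are 3.35 and 3.32.

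WT vehicle was last set against the mean of the 2 knockout groups, to ask which features of this transcriptome belong to the wild type libraries. In 1 edgeR fit of all 12 libraries, 0 of 12175 tested genes (0%) were called at an adjusted p under 0.05, with 891 genes at an unadjusted p under 0.05. DESeq2 called 61 of 12168 genes (0.501%), 21 higher (0.173%) and 40 lower (0.329%) in WT vehicle. The edgeR count was 31 without KO Treg 1 and 3 without WT vehicle 1 or WT vehicle 2. In 50 of the 12175 genes (0.411%) the 4 WT vehicle libraries lay wholly above or below the other 8. No class share of the 45 with rows did. Separation of 4 libraries from 8 also arises by chance in a small share of genes, and the 50 genes were not set against that share.

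The 5 genes of smallest p are given as the nearest to a difference. Fmo1, a flavin monooxygenase, had 88.0, 94.1, 101 and 118 CPM in WT vehicle, against 48.5 to 64.5 in KO vehicle and 58.3 to 83.5 in KO Treg. It was higher in WT vehicle by 0.69 ± 0.10 on the log2 scale (SE, edgeR adjusted p = 0.0758), and all 4 of its libraries lay above the other 8. Entpd5, a nucleotidase of the endoplasmic reticulum, had 103, 75.6, 82.1 and 89.4 CPM in WT vehicle, against 47.0 to 65.4 in the other 8 (0.65 ± 0.12, edgeR adjusted p = 0.115), again with no overlap. Pcolce2, an enhancer of procollagen processing, was lower in WT vehicle at 28.4, 31.4, 33.7 and 26.0 CPM, against 60.8 to 65.8 in KO vehicle and 33.0 to 44.0 in KO Treg (-0.71 ± 0.12, edgeR adjusted p = 0.0812).

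Bcat2, a mitochondrial enzyme of branched-chain amino acids, had 47.3, 26.9, 58.7 and 53.5 CPM in WT vehicle, against 16.3 to 30.7 in the other 8 (1.03 ± 0.19, edgeR adjusted p = 0.115), so that WT vehicle 2 overlapped them. Serpina3m had 1.62, 3.22, 2.52 and 7.57 CPM in WT vehicle, against 0.220 to 2.17 in the other 8 (2.71 ± 0.46, edgeR adjusted p = 0.0985), with the overlap in exons given above. None of the 5 passed the threshold in the main edgeR fit. Over 20 alternative runs, Fmo1 passed it in 4, Bcat2 in 3, and Pcolce2 and Entpd5 in 2 each. Serpina3m passed it in 4 of 19. Both knockout groups enter this contrast as a mean, so a gene that differed in 1 of them alone gives a smaller difference here.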

How the data were processed

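Gonadal fat of pregnant mice (12 libraries) was measured by 3' RNA sequencing (QuantSeq) of column-purified, DNase-treated total RNA, per the labels' protocols. The files deposited by the authors hold raw counts for 20632 gene symbols each. The build was mm10, and HTSeq (0.6.1), TopHat2 (2.1.1), SAMtools (1.3.1) and BWA (0.7.12) are named in the submitters' processing notes. No annotation or strand setting is stated there, so a gene's reads cannot be told apart from those of a gene overlapping it on the other strand (among those named, for example, Fabp3, Dio2, Me1, Elovl6, Mylk, Tagln and Mat2a).

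CPM was computed here from the deposited counts as the count divided by the file total and scaled to the same size for each library. Gene positions and merged exon lengths came from GENCODE M21 on GRCm38, where 20467 symbols matched, and promoters from RefSeq (15499 matched). The contrast was tested with edgeR 4.0.16 (quasi-likelihood, robust, R 4.3.3) after TMM and filterByExpr, with 3 groups in 1 fit, no covariate and Benjamini-Hochberg adjustment at 0.05; DESeq2 1.42.0 was an alternative. The fit was tested on simulated data. Counting intervals of ratios are exact binomial at 95%.

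The members, gene lists and limits were chosen with earlier results of these data known. The rule for named genes took Adipoq, Fabp4, Cfd, Tnfrsf11a and Foxn1, the 30 most abundant genes, up to 6 most abundant, 3 most variable and 3 steadiest members of each list, the 30 variable genes of largest ratio, the 30 steady genes of smallest ratio and the 5 contrast genes of smallest p. Markers of cell types were also fixed. The text gives some of these; Plin4, Lipe, Pparg, Lep, Srebf1, Mlxipl, Pck1, Ifi27l2a, the genes at the limits and those variable in all 3 groups were named after their values were seen.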

Additional observations from a re-analysis of the deposited data

Results flagged for a closer look

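In 15 of 143 groups of 4 WT vehicle libraries tested, a single library lay apart from the other 3 by a gap that, divided by the group's range, passed Dixon's 95% critical value, which chance passes in about 1 of 20 groups. Many of the genes tested were named for their spread, so the number found cannot be set against that share. WT vehicle 1 was the library apart in 9 of the 15. All but 1 of these were thermogenic genes or their class: WT vehicle 1 had 1886 CPM of Ucp1, 2890 of Cidea, 697 of Fabp3, 386 of Cox8b, 191 of Cox7a1, 51.3 of Dio2 and 115 of Cpt1b, and 0.293% of its counts in the thermogenic class. The other 3 libraries reached at most 48.8 CPM of Ucp1, 207 of Cidea, 22.05 of Fabp3, 111 of Cox8b, 16.3 of Cox7a1, 3.91 of Dio2 and 6.001 of Cpt1b, and 0.0244% in the class. Ms4a1, a B cell marker, was at 1.70 CPM in WT vehicle 1 and at most 0.261 CPM in the others.

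WT vehicle 4 was low for Dbi (5655 CPM, others 6308 to 6405) and Retn (812 CPM, others 1516 to 1618) and high for Sfrp5 (47.1 CPM, others 4.14 to 11.4). WT vehicle 2 was high for Mlxipl (431 CPM, others 199 to 231) and low for Plin1 (543 CPM, others 673 to 696). Star was at 32.2 CPM in WT vehicle 3 and at 3.78 to 8.41 CPM in the others.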

How the results depend on the processing

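No paired analysis was possible because replicate numbers were given in accession order and pair no samples. Of 17 main results, 3 kept their value within the limit under every alternative run. Scaling by TMM left all 121 variable genes in place and 893 of the 1075 steady genes; RLE left 121 and 887, and counts thinned to the smallest library 116 and 967. With the minimum doubled 577 genes were steady. With the 10 most abundant genes out of the total, the next 10 held 4.096% and the next 100 held 21.4% of counts, adipocyte identity took 3.20% and adipokines 1.304%. Per kb, the top 10 held 22.9% and the top 100 held 45.6%, 139 genes held 50%, and the shares were 4.22% for adipocyte identity, 14.6% for adipokines, 6.60% for oxidative phosphorylation and 14.9% for ribosomal proteins.

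Leaving out 1 library gave 63 to 94 variable and 1457 to 1614 steady genes, since fewer libraries give smaller ratios; 61 of the 63 without WT vehicle 1 were among the 121. Of the variable genes, 28.1% to 36.4% were found again in KO vehicle and 14.9% to 37.2% in KO Treg, and of the steady genes 44.7% to 55.6% and 53.2% to 63.3%. The contrast had 0 called genes by edgeR, with 891 at an unadjusted p under 0.05, and 61 by DESeq2, 2 with no filter, 3 in the higher number series alone and 0 to 31 with 1 library left out; the cause was not tested. Adjusted p of Fmo1 ran from 3.38e-06 (DESeq2) to 0.827 over 20 alternatives, and all 5 named contrast genes kept their direction. Counts of 3 or fewer, as for Ucp1 in WT vehicle 3, limit the largest ratios.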
